A study of Drosophila melanogaster with 6 samples.

Results

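The accessible regions described here are those closest to the free ends of 4 chromosome arms of Drosophila melanogaster, the tips of X, 2L, 3L and 3R. They are defined by position, as the peaks that start within 500 kb of the end of X, 2L or 3L, or within the last 579 kb of 3R, on the dm6 assembly. Peaks of the 6 deposited lists that overlapped were merged, which gave 649 intervals out of 45905 over all sequences. The X end held 112 of them, the 2L end 139, the 3L end 166 and the 3R end 232.

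Drosophila chromosomes do not end in the short telomerase repeats of most animals. Their ends are kept by arrays of the telomeric retrotransposons HeT-A, TART and TAHRE, followed by telomere-associated satellite repeats and then by unique sequence with genes. Transgenes inserted in or next to these repeats are often silenced, which is known as telomeric position effect.

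Accessible chromatin was mapped by ATAC-seq, in which a transposase cuts open DNA, in pools of whole wing imaginal discs, the larval epithelia that form the adult wing and notum. All larvae carried the tub-Gal4 driver, which is active in all cells, with tub-Gal80ts, a temperature-sensitive repressor, and were kept for 7 days at 17 °C and then for 2 days at 31 °C. The 3 genotypes expressed GFP (control), RNAi against the mitotic kinase Cdk1 (Cdk1-i, in the study's methods from a pair of lines combined) or fzr, the activator of the anaphase-promoting complex that drives cells into the endocycle. Each genotype had 2 libraries and each library its own peak list. The names of the 4 lists of Cdk1-i and fzr exchange these genotypes against the sample labels. The labels were followed, so "Cdk1-i" and "fzr" below mean the libraries labelled so, and with the exchange every difference given for one belongs to the other.

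Each list gives a peak's fold enrichment over the local background, and its percentile is the rank of that fold within its own list, from 0 to 100. The lists held 27119 to 36715 peaks, with fzr replicate 2 the shortest and with the longest peaks (median 442 bp, against 306 to 373 bp in the other lists). Read depth is unknown, so a missing peak means that none was listed, not that the region was closed. Of 8 wing disc genes checked at their 5′ ends, 7 had a peak in all lists (nub, rn, wg, dpp, ara, caup and tsh) and hth had none in any list. All 4 myoblast genes and 2 of 3 haemocyte genes (Hml and srp) had a peak in every list, whereas the 3 fat body and 5 salivary gland genes had none. The replicates are separate biological samples in the study's methods.

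To show what lies at these tips, the reference sequence of the most distal interval shared by all 6 lists is given for each end, with the 4 intervals of the last 50 kb of 3L that both GFP libraries and neither Cdk1-i library held. Each is 200 bases of the plus strand of dm6 (RefSeq) around the summit. Capitals mark matches, on either strand, to GAGAG, the element bound by GAGA factor, or to CGATA, the core bound by the boundary factor BEAF-32.
X, 147.8 kb from the end, chrX:148522-148721: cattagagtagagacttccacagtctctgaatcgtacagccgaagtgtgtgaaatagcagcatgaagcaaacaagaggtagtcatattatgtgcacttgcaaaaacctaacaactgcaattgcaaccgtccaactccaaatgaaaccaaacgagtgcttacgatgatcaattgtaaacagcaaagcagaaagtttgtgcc
2L, 5.04 kb from the end, chr2L:5663-5862: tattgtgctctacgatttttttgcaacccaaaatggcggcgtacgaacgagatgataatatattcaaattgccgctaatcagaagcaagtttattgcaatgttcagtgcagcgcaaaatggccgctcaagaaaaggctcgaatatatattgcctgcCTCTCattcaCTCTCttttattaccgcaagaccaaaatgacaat
3L, 29.6 kb from the end, chr3L:29795-29994: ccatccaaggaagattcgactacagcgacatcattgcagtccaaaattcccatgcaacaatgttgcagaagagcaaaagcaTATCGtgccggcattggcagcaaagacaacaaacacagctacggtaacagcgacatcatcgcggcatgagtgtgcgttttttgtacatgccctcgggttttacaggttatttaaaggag
3L, 34.6 kb from the end, chr3L:34712-34911: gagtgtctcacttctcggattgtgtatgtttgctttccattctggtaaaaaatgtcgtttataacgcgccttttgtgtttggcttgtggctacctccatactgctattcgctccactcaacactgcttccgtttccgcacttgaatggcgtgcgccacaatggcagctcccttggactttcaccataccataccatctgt
3L, 40.1 kb from the end, chr3L:40436-40635: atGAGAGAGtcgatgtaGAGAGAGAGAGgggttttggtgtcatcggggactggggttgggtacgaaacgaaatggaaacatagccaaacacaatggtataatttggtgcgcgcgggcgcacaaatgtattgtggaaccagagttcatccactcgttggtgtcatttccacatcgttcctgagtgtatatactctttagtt
3L, 41.6 kb from the end, chr3L:41792-41991: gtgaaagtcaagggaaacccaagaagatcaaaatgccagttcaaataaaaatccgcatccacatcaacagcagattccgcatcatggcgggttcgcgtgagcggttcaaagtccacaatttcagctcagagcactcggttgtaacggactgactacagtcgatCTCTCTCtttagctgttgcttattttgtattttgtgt
3L, 47.6 kb from the end, chr3L:47834-48033: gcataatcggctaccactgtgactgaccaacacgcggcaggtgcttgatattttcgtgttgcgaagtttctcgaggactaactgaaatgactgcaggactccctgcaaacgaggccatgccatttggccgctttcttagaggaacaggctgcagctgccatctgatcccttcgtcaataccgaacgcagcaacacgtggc
3R, 35.2 kb from the end, chr3R:32043853-32044052: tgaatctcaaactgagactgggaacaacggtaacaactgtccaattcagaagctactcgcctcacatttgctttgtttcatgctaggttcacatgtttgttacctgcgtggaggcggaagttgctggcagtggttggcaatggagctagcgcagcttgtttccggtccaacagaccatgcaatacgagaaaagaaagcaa

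The 3L interval at 40.1 kb held 6 GAGAG matches in this window, overlapping ones included. The 41.6 kb interval and the 2L interval held 2 each. The windows at 29.6, 34.6 and 47.6 kb of 3L, of X and of 3R held none, and the 29.6 kb window held 1 CGATA match. The 4 intervals absent from Cdk1-i thus had from 0 to 6 GAGAG matches. In windows of 300 bp around the summit, GAGAG on either strand was found in 40.2% of the 649 intervals and in 37.2% of the 35967 other intervals of these arms. By end, the share was 26.8% on X, 41.7% on 2L, 46.4% on 3L and 41.4% on 3R. CGATA was in 31.6% of the intervals at the ends and in 27.6% of the others. The longer TATCGATA of the transcription factor DREF, which contains CGATA, was in 9 of 649 (1.39%, against 0.970%). GGTCACACT, the element of M1BP, was in 3 (0.462%, against 0.639%). The median GC content of the windows was 46.7% at the ends and 48.3% elsewhere. These shares are descriptions of the sequence, without a test.

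The first listed peak lay at very different distances from the 4 ends. These distances run to the end of the dm6 sequence of each arm. How much of the terminal repeats that sequence holds, or how well reads map there, was not tested. On X no list held a peak within the first 127 kb, where the first protein-coding gene, CG17636, starts at 126.7 kb. The first X peak lay 127.4 kb from the end in GFP replicate 2 and fzr replicate 2 and 145.2 kb in the other 4 lists. On 2L a peak began 5.04 to 5.57 kb from the end in all 6 lists, distal to the first protein-coding gene l(2)gl, a tumour suppressor of cell polarity whose 5′ end lies at 21.4 kb. On 3R the first peak lay 13.3 to 18.8 kb from the end, within Map205, which encodes a microtubule-associated protein.

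At the 3L end the first peak fell in a different interval in each genotype, which was not the case on 2L. It lay at 26.7 and 22.2 kb in the GFP libraries, at 47.6 kb in both Cdk1-i libraries and at 34.6 kb in both fzr libraries. The map of intervals by library shows this step at the left edge of the 3L panel.

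**Figure D1:**
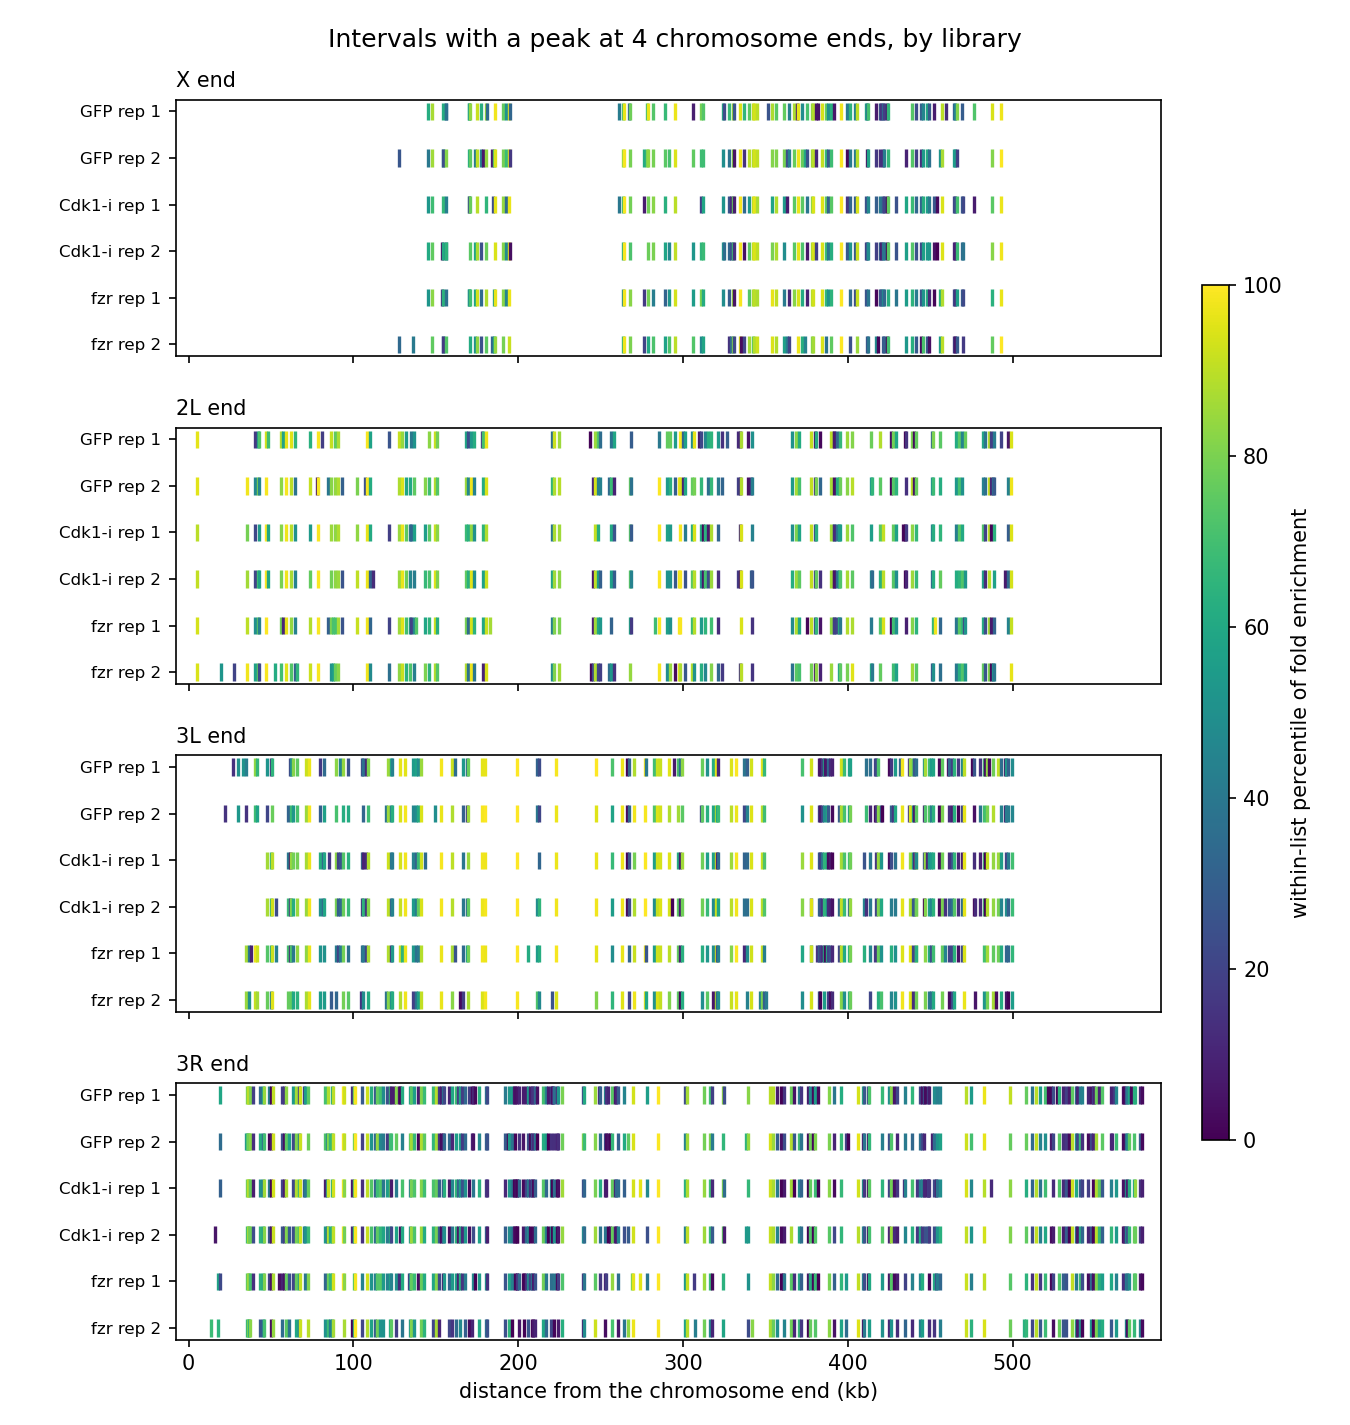
Intervals with a peak in each of the 6 libraries at the 4 ends, by distance from the chromosome end (kb); each tick is 1 merged interval and its colour is the within-list percentile of fold enrichment (0 to 100). The X panel is empty before 127 kb, and the 3L panel starts at 22.2 to 26.7 kb in GFP, 47.6 kb in Cdk1-i and 34.6 kb in fzr.

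The last 50 kb of 3L held 11 intervals, all but 1 of them intergenic. The exception lay at the 5′ end of mthl8, which encodes a methuselah-like G protein-coupled receptor, and only GFP replicate 2 had a peak there (percentile 14.8). A further 2 intervals, at 26.7 and 32.8 kb, were held by GFP replicate 1 alone (percentiles 13.8 and 51.9).

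The interval at 29.6 kb (chr3L:29642-29954) had peaks of 3.56-fold and 3.18-fold enrichment in the GFP libraries, percentiles 49.7 and 52.9. Neither the Cdk1-i nor the fzr libraries had a peak there. It was thus the 1 interval of this tip seen in both controls and in no other library.

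From 34.6 kb to 42.1 kb the fzr libraries had peaks above those of the controls, while the Cdk1-i libraries had none. At 34.6 kb (chr3L:34577-35043) fold enrichment was 3.31 and 2.26 in GFP (percentiles 42.7 and 14.8) and 9.01 and 5.70 in fzr (86.6 and 84.5). At 40.1 kb (chr3L:40065-40733), the GAGAG-rich interval printed above, it was 6.14 and 3.92 in GFP (83.3 and 69.1) and 15.7 and 7.08 in fzr (97.3 and 91.4). At 41.6 kb (chr3L:41573-42087) it was 4.36 and 3.37 in GFP (66.1 and 58.1) and 11.2 and 5.94 in fzr (92.0 and 86.0). The fzr and GFP percentiles did not overlap at any of these 3 intervals. Between them, the interval at 36.7 kb was held by fzr alone (percentiles 39.9 and 50.3) and that at 38.1 kb by fzr replicate 1 alone (9.31).

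At 47.6 kb the Cdk1-i libraries had their first peak, and it ranked higher than in the controls. Fold enrichment at chr3L:47631-48085 was 3.64 and 2.39 in GFP (percentiles 51.9 and 20.6), 8.03 and 8.10 in Cdk1-i (86.1 and 87.0), and 6.15 and 4.74 in fzr (73.4 and 76.7). Both altered genotypes lay above both controls, by 50.3 points in Cdk1-i and 38.8 points in fzr. At 49.7 kb (chr3L:49654-50011) the percentile was 13.8 in GFP replicate 1, 65.5 and 66.5 in Cdk1-i, and 62.8 and 41.9 in fzr, with no peak in GFP replicate 2. So the control libraries had the most distal peaks of this tip, but at 34.6 to 49.7 kb no control percentile exceeded that of a library of another genotype with a peak in the same interval.

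**Figure D2:**
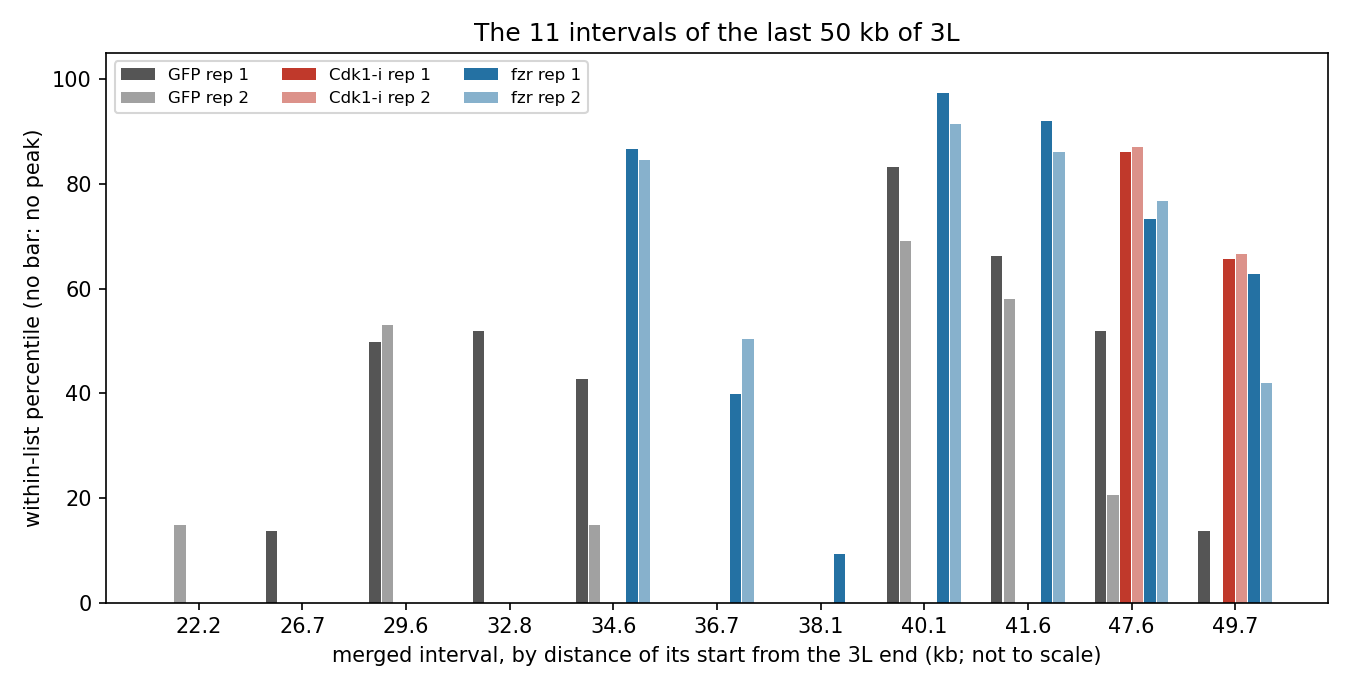
Within-list percentile of fold enrichment (y axis) at the 11 intervals of the last 50 kb of 3L, ordered by distance from the end (x axis, kb, not to scale), 1 bar per library; no bar means no listed peak. The Cdk1-i libraries have bars only at 47.6 and 49.7 kb, and the fzr bars at 34.6, 40.1 and 41.6 kb stand above both GFP bars.

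Counted per library, the last 50 kb of 3L held 8 and 6 intervals with a peak in GFP, 2 and 2 in Cdk1-i and 7 and 6 in fzr. The Cdk1-i mean was lower by 5 intervals and its libraries did not overlap with the controls (exact two-sided permutation test, p = 0.333, the smallest that 2 against 2 libraries allow). The tests were chosen with earlier results of these data known, so this difference is a description and not independent evidence. The fzr mean differed from the control by -0.5 intervals (exact permutation p = 1), with overlapping libraries. At the other 3 ends together the last 50 kb gave a difference of 0 intervals for Cdk1-i and 0.5 for fzr (exact permutation p = 1 for both). The X tip held none, the 2L tip 6 and 6 in GFP, 6 and 7 in Cdk1-i and 6 and 8 in fzr, and the 3R tip 11 and 12, 11 and 11, and 12 and 10. When the 3L count was set against the mean of the other 3 ends in each library, the Cdk1-i difference was again -5 and the fzr difference -0.667 (exact permutation p = 0.333 and 1). The 3L difference of Cdk1-i was -2.5 intervals with equal numbers of peaks per list or with short peaks left out, -3 with a minimum −log10 q of 5, and -0.5 within 100 kb. Within 30 kb the difference was -2 intervals in Cdk1-i and also in fzr. Each genotype came from its own cross, so a difference between the stocks' chromosomes and an effect of the transgene cannot be told apart.

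Coverage of this tip was lowest in Cdk1-i and highest in fzr. Peaks covered 4.79% and 3.02% of the last 50 kb of 3L in GFP, 1.52% and 1.54% in Cdk1-i, and 5.45% and 5.24% in fzr, with no overlap between any of the genotypes. In the next 50 kb they covered 9.13% and 12.2% in GFP, 13.8% and 15.1% in Cdk1-i, and 11.3% and 13.9% in fzr. There the Cdk1-i libraries lay above the controls, and fzr overlapped with them. At 400 to 500 kb, which includes the 3′ part of klar, coverage was 21.1% and 20.5% in GFP, 17.5% and 18.3% in Cdk1-i and 15.2% and 16.1% in fzr.

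**Figure D3:**
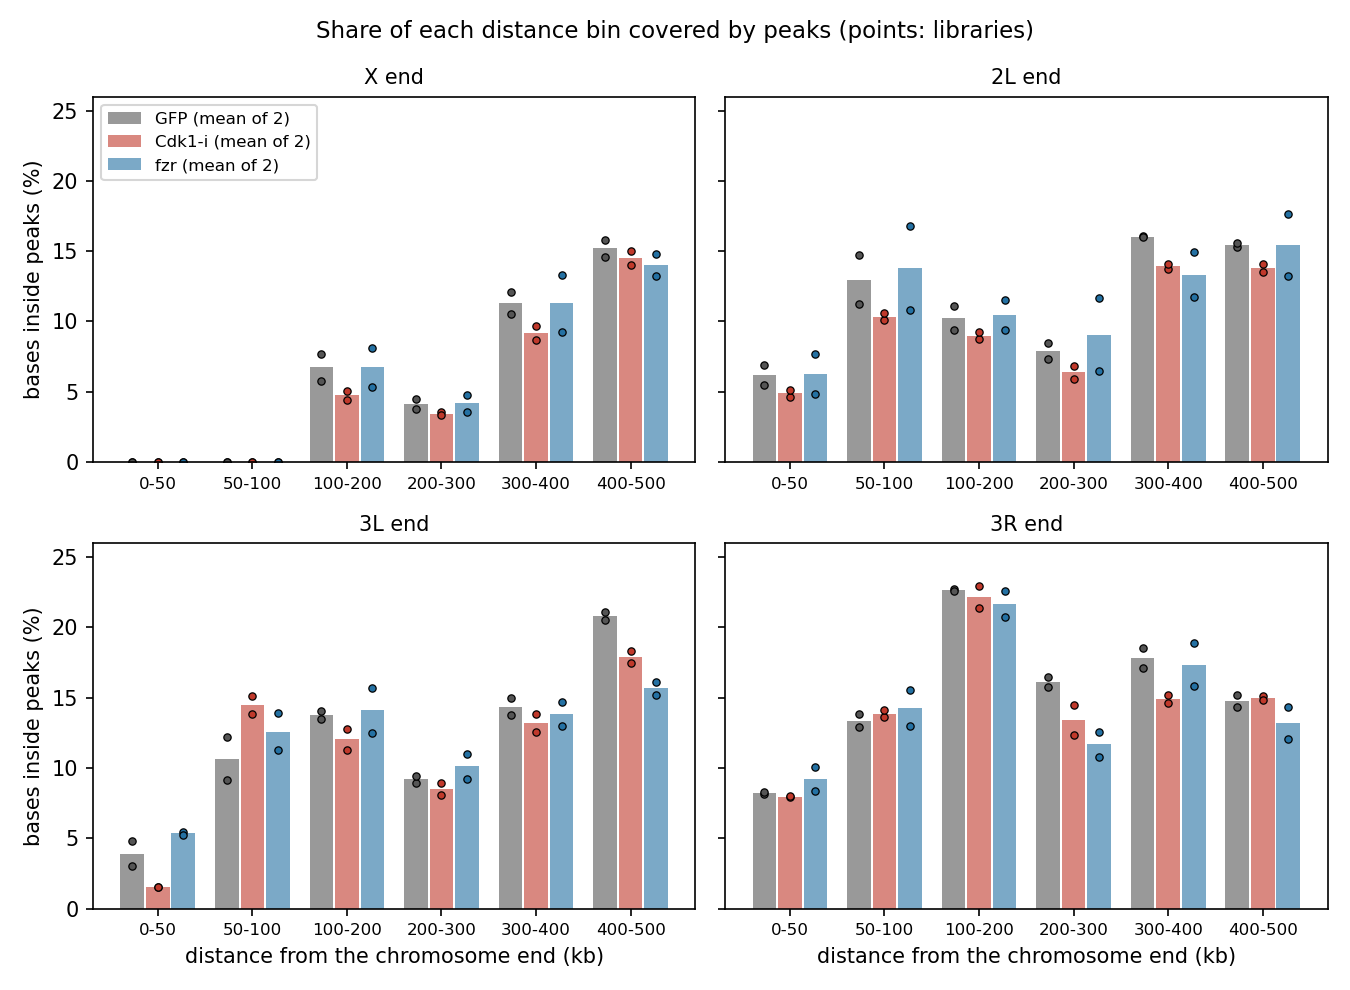
Share of bases inside peaks (%, y axis) in bins of distance from the chromosome end (kb, x axis) for the 4 ends; bars are the mean of 2 libraries and points the libraries. X has no covered base before 100 kb, 3R reaches 20.7 to 22.9% at 100 to 200 kb, and the 3 genotypes separate in the first bin of 3L.

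From 50 to 100 kb of 3L, 11 intervals had a peak in all lists, and 6 of them had both Cdk1-i percentiles above both controls and 0 had both below, with a median change of 9.06 points. The medians of the 4 bins from 100 to 500 kb were 0.0243, -0.310, 0.222 and 1.72 points. With the interval at 47.6 kb, the last 100 kb held 12 such intervals, of which 7 were higher (median 11.5 points). Over all 19441 intervals with a peak in every list, 23.7% were higher and 21.0% lower without overlap in Cdk1-i. In fzr 4 of the 12 were higher and 1 was lower (median change 6.59 points), where 8.53% of all such intervals were higher and 33.2% lower. The corresponding intervals of 2L (13) and 3R (20) had medians of -4.50 and 0.639 points in Cdk1-i and of -3.55 and -3.43 points in fzr. Over the 19093 intervals outside the ends, the medians were 0.450 and -4.20 points.

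Across the whole of the 4 ends, 348 of 649 intervals (53.6%) had a peak in every list and 87 (13.4%) in 1 list only. In the rest of these arms the shares were 41.9% and 16.6%. Of the 348, 79 (22.7%) were higher and 76 (21.8%) lower without overlap in Cdk1-i, and 43 (12.4%) were higher and 103 (29.6%) lower in fzr. For Cdk1-i both shares were near those over all intervals given above. By end, the fzr share of higher intervals ran from 9.86% on 2L and 10.7% on X, near the background of 8.53%, to 12.2% on 3R and 15.6% on 3L. Its share of lower intervals was 35.7% on X and 38.0% on 2L, above the background of 33.2%, and 21.1% on 3L and 28.2% on 3R, below it.

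**Figure D4:**
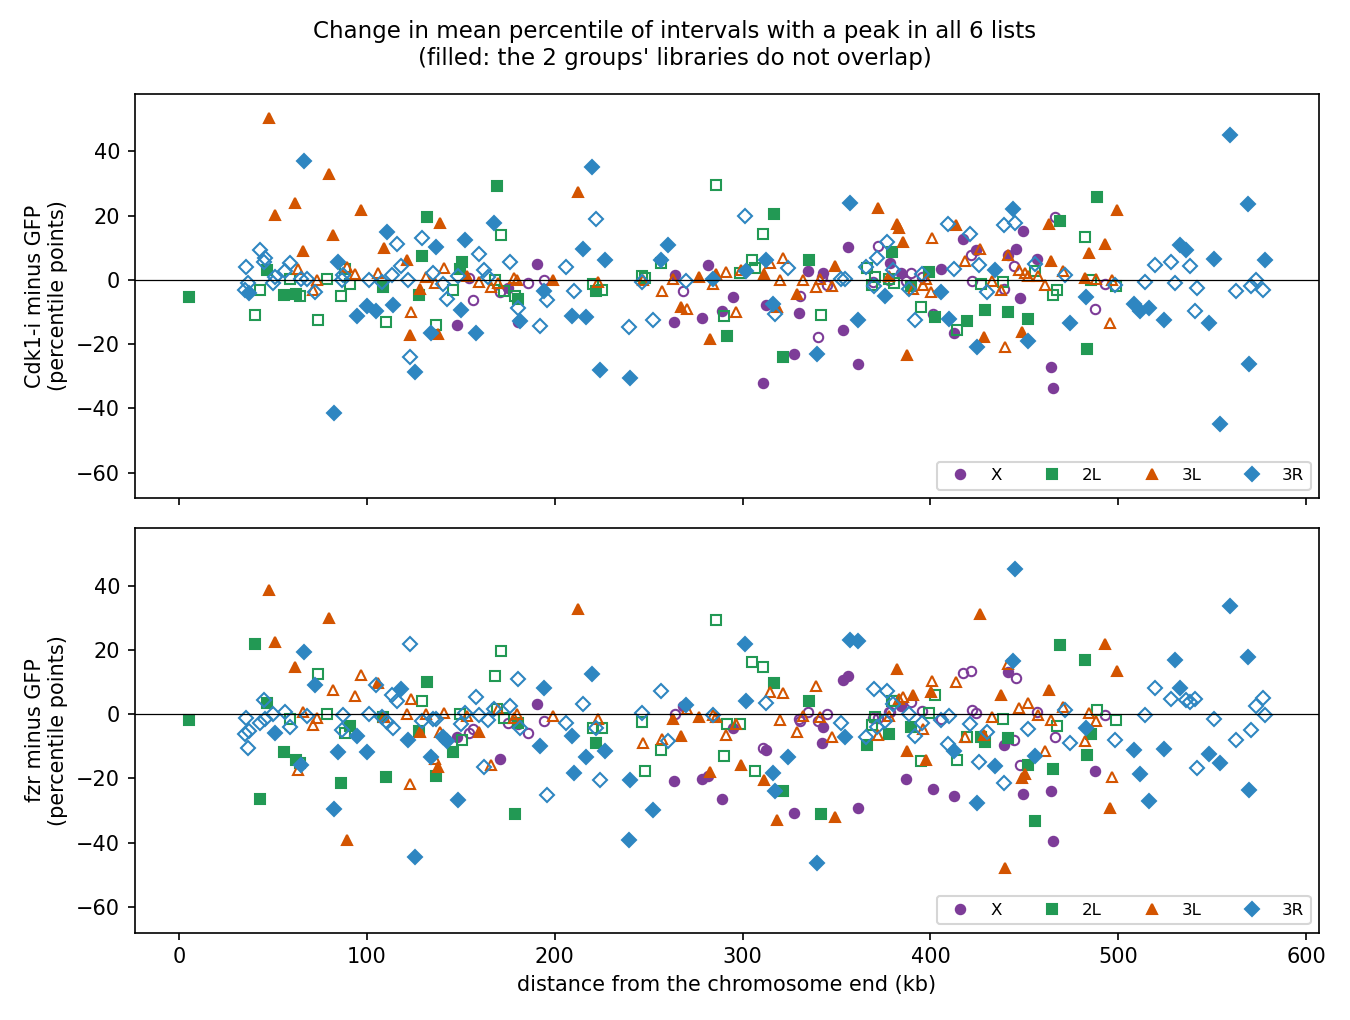
Change in mean percentile against GFP (y axis, percentile points) of the 348 intervals with a peak in all 6 lists, by distance from the chromosome end (kb), for Cdk1-i (top) and fzr (bottom); filled symbols are intervals whose libraries do not overlap with the controls. The most distal 3L triangle lies at 50.3 points in Cdk1-i and 38.8 in fzr.

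The largest non-overlapping changes in intervals shared by all lists lay on 3R for Cdk1-i, apart from the 3L interval at 47.6 kb. An intergenic interval at 554.1 kb (chr3R:31524045-31525182), near lncRNA:CR45573, had percentiles of 73.1 and 74.9 in GFP and 27.7 and 30.2 in Cdk1-i. Its neighbour at 559.5 kb differed in the other direction, with 9.41 and 10.3 in GFP and 43.2 and 66.5 in Cdk1-i. Within heph, which encodes a polypyrimidine tract RNA-binding protein, an intron interval at 82.5 kb had 70.5 and 72.3 in GFP and 6.79 and 53.3 in Cdk1-i, so that the Cdk1-i libraries themselves lay far apart. At 66.7 kb the 5′ end of lncRNA:CR45556 had 19.8 and 42.6 in GFP and 65.8 and 70.4 in Cdk1-i.

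In fzr the largest change was in an intron of klar, which positions nuclei and lipid droplets, at 439.6 kb of 3L. Its percentiles were 75.4 and 54.2 in GFP and 20.4 and 13.2 in fzr. The 5′ end of eEF1alpha2, a translation elongation factor gene at 339.4 kb of 3R, had 82.4 and 84.1 in GFP and 51.1 and 22.9 in fzr, with 66.5 and 53.8 in Cdk1-i. An exon of kek6, which encodes a leucine-rich repeat transmembrane protein, ranked higher in fzr (61.8 and 55.2) than in GFP (4.09 and 22.5). A heph intron at 125.7 kb of 3R had 81.5 and 76.0 in GFP and 50.4 and 18.0 in fzr. An interval within CG32816 at 465.1 kb of X had 45.3 and 54.7 in GFP and 14.7 and 6.40 in fzr. Thus 4 of these 5 intervals ranked lower in fzr. Lower ranks also prevailed over all 19441 intervals with a peak in every list, with 33.2% lower and 8.53% higher without overlap.

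Few intervals were gained or lost outright. An interval was called gained when both libraries of a genotype and neither control had a peak, and lost in the opposite case. Cdk1-i gained 12 of 649 intervals (1.85%) and lost 17 (2.62%), where 3.21% and 3.28% of all 45905 intervals were called. In fzr 5 were gained (0.770%) and 26 lost (4.01%), against 1.06% and 6.07% of all intervals. All 4 shares were thus below those of the whole series. The 3L end held the most losses, 7 in Cdk1-i and 11 in fzr. These were 4.22% and 6.63% of its intervals, little above the 3.28% and 6.07% of all intervals. Of the losses 8 were shared by both genotypes, which were compared with the same controls. The lost intervals were mostly weak, with a median percentile of 15.8 in GFP for those lost in Cdk1-i and 15.9 for those lost in fzr.

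The counts depend on every library. Without GFP replicate 1 or 2, the Cdk1-i losses were 41 or 52 and its gains 48 or 23, and the fzr losses were 43 or 73 and its gains 14 or 25. Without Cdk1-i replicate 1 or 2 the Cdk1-i gains were 21 or 22, and without replicate 2 its losses were 37. Without fzr replicate 1 the fzr losses were 72 and its gains 26, and without replicate 2 its gains were 35.

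The strongest loss outside the 3L tip lay in an intron of ewg, a transcription factor gene of flight muscle and neurons, at 278.1 kb of X (chrX:278055-278233). Its percentiles were 68.4 and 79.4 in GFP, and no other library had a peak. At 364.5 kb of X, an interval at lncRNA:yar, a noncoding RNA gene between yellow and achaete, had 42.7 and 42.6 in GFP, none in Cdk1-i and lower ranks in both fzr libraries. On 2L the introns of Plc21C (phospholipase C) and Pi3K21B (the regulatory subunit of PI3 kinase) lost weaker peaks, at percentiles of 13.8 and 32.4 and of 31.0 and 9.43 in GFP. Within klar, the gene with the most fzr losses here, 7 of 38 intervals were lost in fzr and 2 in Cdk1-i. Over all intervals 6.07% and 3.28% were lost. By comparison, heph lost 3 of 87 intervals in fzr and CG32816 2 of 68. With equal numbers of peaks per list, the fzr losses at the 4 ends were 13 instead of 26. The number of klar intervals with a peak was 33 and 28 in GFP, 24 and 21 in fzr and 30 and 31 in Cdk1-i.

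Among the gains, a pair of intervals at gene 5′ ends ranked high in Cdk1-i and in fzr replicate 1. At a 5′ end of klar, 441.1 kb from the end of 3L, the percentiles were 94.3 and 86.8 in Cdk1-i and 87.2 in fzr replicate 1. At CG11885 and CG13692, 421.4 kb from the end of 2L, they were 90.7 and 89.5 in Cdk1-i and 94.0 in fzr replicate 1. Both peaks were short, 163 to 205 bp, and neither the controls nor fzr replicate 2 listed one. When peaks shorter than the longest of the 6 minimum lengths were left out, Cdk1-i had 7 gains.

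An interval just upstream of Cyp4g1, a cytochrome P450 of cuticular hydrocarbon synthesis, was the 1 interval gained in both genotypes (chrX:469803-470170). Its percentiles were 21.1 and 38.6 in Cdk1-i and 22.0 and 17.0 in fzr. At the 5′ end itself, a separate interval (chrX:469322-469514) had peaks in GFP replicate 1, both Cdk1-i libraries and fzr replicate 1. Those percentiles were 29.0, 28.3, 34.9 and 29.2. The 5′ end of net, which encodes a bHLH repressor of wing vein formation, had a peak only in fzr (percentiles 70.9 and 55.3, at 87.4 kb of 2L). An exon of Map205, 17.8 kb from the 3R end, was likewise listed in fzr alone (58.1 and 64.5). The other fzr gains were the 36.7 kb interval of 3L and a heph intron with percentiles under 1 in both libraries.

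At each end, the 3 regions named as highest were chosen by mean percentile over the 6 lists, with a missing peak counted as 0. That choice favours regions shared by all lists, as these 12 were. The 12 regions lay at gene 5′ ends in 9 cases, against 24.0% of all 649 intervals. On X they were the 5′ ends of sc, a proneural bHLH gene of the achaete-scute complex (percentiles 97.8 to 99.9 over the 6 libraries), of CG13377 (96.6 to 99.2) and of CG17896 (96.9 to 99.6). On 2L they were an intergenic interval near CG11374 (99.0 to 99.4), a Cda5 intron (92.9 to 99.5; Cda5 encodes a chitin deacetylase-like protein) and the 5′ end of Sam-S, the S-adenosylmethionine synthetase gene (96.3 to 98.9). On 3L they were the 5′ ends of rno, which encodes a PHD finger nuclear protein (98.9 or above), RhoGEF3 (97.3 to 99.7) and mthl9 (96.3 to 99.4). On 3R they were the 5′ ends of Acf, the large subunit of the ACF nucleosome remodelling complex (98.9 to 99.9), and CG2003 (98.4 to 99.7), and an exon of Rift (92.7 to 97.1). The libraries spanned less than 10 points at each of these 12 intervals, where percentiles so near 100 leave little room to differ.

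The most distal interval held by all lists was strong on 2L, with percentiles of 95.9 and 95.5 in GFP, 89.8 and 90.9 in Cdk1-i, and 93.6 and 94.5 in fzr, although it lay 5.04 kb from the end (chr2L:5044-5991). On 3R it was an intergenic interval 35.2 kb from the end (chr3R:32043814-32044108), next to krz, the nonvisual beta-arrestin gene, with 79.9 and 70.6, 77.1 and 67.1, and 74.2 and 64.1. On X it was the 5′ end of CG17707 within tyn at 147.8 kb (chrX:147817-148872), with 87.0 and 85.7, 69.1 and 75.4, and 82.8 and 75.5. The Cdk1-i values were below both controls on 2L and X and overlapped with them on 3R, unlike the 3L interval at 47.6 kb, where they were higher.

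Of a list of 36 genes of these arms, 24 had their 5′ end inside the windows, and 12 were dropped. For this list the 5′ end is the outermost start of the gene, whereas intervals elsewhere are placed by the starts of all transcripts. A peak lay within 500 bp of that outermost start in all lists for 5 of the 24, and in no list for 14. The 5 were y, the yellow pigmentation gene, ac and sc, proneural genes of the achaete-scute complex, Lsp1gamma, a larval serum protein gene, and ttk, which encodes the repressor Tramtrack. At y the percentiles were 74.3 and 80.9 in GFP, 87.9 and 87.8 in Cdk1-i and 90.3 and 88.7 in fzr, so both genotypes lay above the controls. At ac they ranged from 94.4 to 97.7 without order by genotype. Lsp1gamma, 66.4 kb from the 3L end, had 75.1 and 71.0, 79.2 and 85.0, and 83.2 and 64.1, although the 3 fat body genes checked elsewhere had no peak. No list had a peak at the outermost starts of l(1)sc and ase, the other members of the achaete-scute complex, or of l(2)gl, spen, smo, ush, trh, awd and Map205. At inner transcript starts, trh, Cda5 and kis had an interval with a peak in all lists, ewg 1 with a peak in 4 lists and spen 1 with a peak in 1 list. Over all 209 protein-coding genes that start in the windows, 53 (25.4%) had a peak at the 5′ end in every list and 103 in none.

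Most intervals lay inside genes. By the annotation, 156 (24.0%) lay within 500 bp of a transcript's 5′ end, 24 (3.70%) in other exons, 345 (53.2%) in introns and 124 (19.1%) between genes. In the rest of the arms these shares were 19.6%, 3.36%, 45.1% and 32.02%. The ends differed among themselves, with 78.6% of the X intervals in introns but 34.3% of the 3L intervals between genes. Several long genes held many of them. heph spans 87 intervals of the 3R end, of which 50 were in all lists, CG32816 spans 68 of the X end, klar 38 of the 3L end and tyn 24 of the X end. The heph region gave 3R its highest coverage, 20.7 to 22.9% of the bases at 100 to 200 kb.

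Taken over the 4 ends together, peaks ranked higher and were longer than those of the rest of the same arms, but this did not hold at each end. Here the rest of an arm is its whole remaining length, pericentromeric heterochromatin included. The median percentile was 52.9 to 57.6 at the ends and 49.7 to 50.3 elsewhere, higher in 6 of 6 libraries by 4.94 points on average. An exact two-sided sign-flip permutation test over the 6 libraries gave an adjusted p = 0.0469 (Benjamini-Hochberg over 3 measures). The median length was larger by 23.8 bp on average, again in 6 of 6 libraries (314 to 487.5 bp against 304 to 436 bp, exact permutation, adjusted p = 0.0469). Peaks per Mb were 1.05 times those of the rest and higher in 4 of 6 libraries (exact permutation, adjusted p = 0.188). These tests cover the spread between libraries only, since all libraries share 1 genome. With equal numbers of peaks per list the differences were 1.95 points (exact permutation, adjusted p = 0.375) and 12.25 bp (exact permutation, adjusted p = 0.328).

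The 4 ends did not behave alike in this comparison. Against the rest of its own arm, the X end had 0.73 to 0.86 times the peaks per Mb in 5 libraries and 1.14 times in fzr replicate 2, in which the rest of X held 139.2 peaks per Mb against 225.6 to 254.1 in the others. The ratio was 0.808 to 0.988 on 2L, 0.977 to 1.19 on 3L and 1.25 to 1.48 on 3R. The order X, 2L, 3L, 3R held in 5 of 6 libraries. The 3R peaks were dense but low in rank, with median percentiles of 41.1 to 44.8 in 5 libraries and 50.6 in fzr replicate 2, against 46.8 to 48.8 in the rest of 3R. On X the median peak length was below that of the rest of X in 6 of 6 libraries, for example 299 bp against 329 bp in GFP replicate 1. On 2L the median percentile was 60.2 to 63.7, against 49.1 to 51.1 in the rest of 2L.

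**Figure D5:**
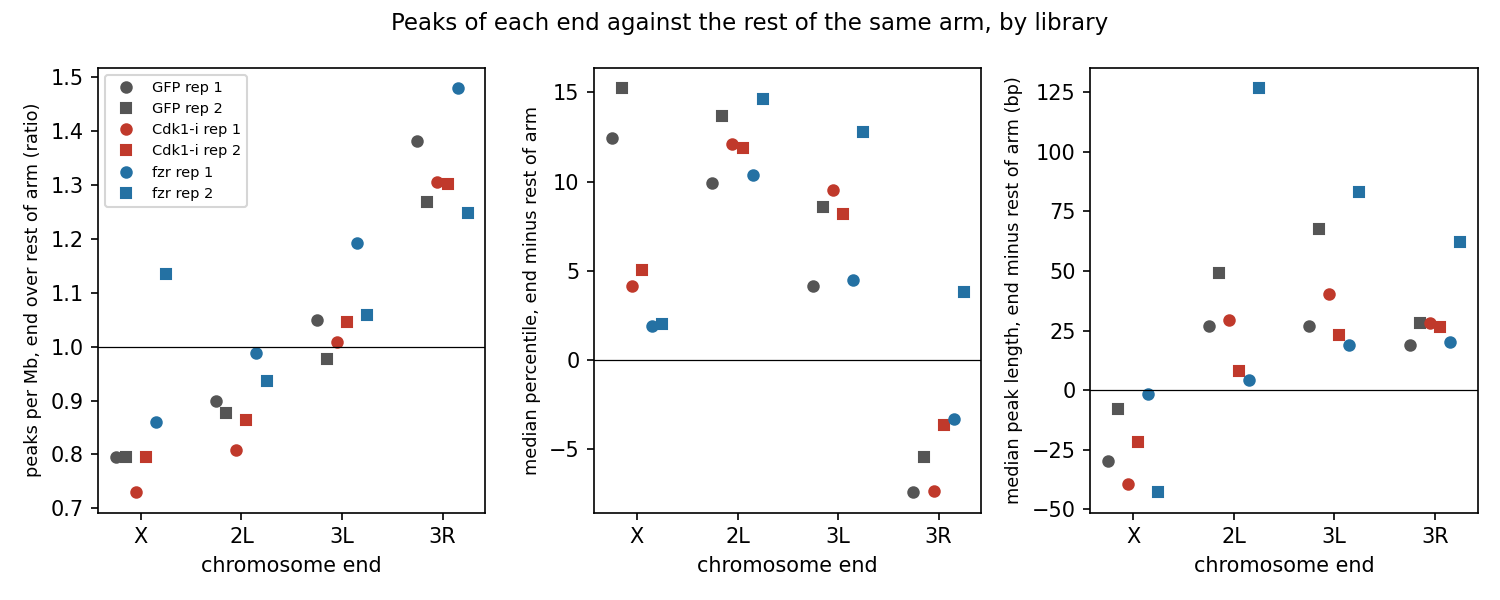
Peaks of each end against the rest of the same arm, 1 point per library and end: ratio of peaks per Mb (left), difference in median percentile (middle, points) and difference in median peak length (right, bp). Length lies below 0 on X in every library. Density lies below 1 on 2L in every library and above 1 on 3R, where the median percentile is lower than in the rest of the arm except in fzr replicate 2.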

How the data were processed

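ATAC-seq peak lists of 6 wing disc libraries were analysed. With nf-core/atacseq, the authors mapped reads against dm6 (BWA-MEM), filtered out blacklisted regions and used MACS2 to call each library's peaks. The deposited fold enrichment, a ratio over the local background, was ranked within each list. The deposited −log10 p, −log10 q and score columns are those of MACS2. The peak-calling cutoff is not given in the sources used here, and read depth is unknown.

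Peaks overlapping by at least 1 bp were merged across lists, and absence of a peak counted as percentile 0. Genes came from Ensembl's BDGP6 annotation and sequence from RefSeq, both on dm6. The members, gene lists and tests were chosen with earlier results of these data known. Intervals were named by rule: all within 50 kb of the 3L end, the most distal and the 3 highest of each end, up to 10 gained or lost, and the 5 largest changes per comparison. Counts per library were compared by exact permutation tests, and the code was tested on simulated lists. Alternatives were a minimum −log10 q of 5, equal lists, an overlap of 0.5, a minimum length, other terminal bins, exchanged labels, a replicate block and leaving out each library. The code ran under Python 3.11.15 with NumPy 2.4.6, and figures were drawn with Matplotlib 3.10.9.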

Additional observations from a re-analysis of the deposited data

Results flagged for a closer look

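At 4 of the named intervals, both Cdk1-i libraries moved one way from both controls and both fzr libraries the opposite way. The difference between the genotypes was not tested at any of them. On 3L, fzr exceeded Cdk1-i in mean percentile by 85.6 points at the interval starting at 34577, by 94.3 points at that starting at 40065 and by 89.0 points at that starting at 41573. In these 3 the Cdk1-i libraries had no peak. At the 5′ end of RhoGEF3, starting at 276716, fzr minus Cdk1-i was -1.85 points, with percentiles of 98.7 and 98.7 in GFP, 99.5 and 99.7 in Cdk1-i and 98.2 and 97.3 in fzr. Over all 45905 intervals 1497 (3.26%) moved in opposite directions in this way, and at the ends 17 of 649 (2.62%) did, 7 of them on 3L.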

How the results depend on the processing

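The loss of peaks from the last 50 kb of 3L in Cdk1-i kept its sign under every alternative run but changed in size. It was -3 with a minimum −log10 q of 5, -2.5 with equal lists and with the minimum length and -2 within 30 kb. It was smallest, at -0.5 intervals each, within 100 kb and with exchanged labels, which by construction give the difference of -5 to fzr. With each library left out the difference was -6 to -4 intervals. The replicate block gave -5 (exact sign-flip permutation p = 0.5, the smallest that 2 pairs allow), and for fzr -0.5. At the other ends together the replicate block gave 0 for Cdk1-i and 0.5 for fzr. The Cdk1-i difference at these ends was -1 with the minimum length and -0.5 with equal lists. It ranged from -1 to 0.5 with a library left out. Same-numbered libraries correlated in their deviations by 0.125 for GFP and Cdk1-i, 0.303 for GFP and fzr and 0.0267 for Cdk1-i and fzr. The main tests did not pair the libraries by number. Whether same-numbered libraries, above all those of GFP and fzr, share a batch was not tested.

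The small 3L difference of fzr turned to 1.5 intervals with a minimum −log10 q of 5, with equal lists, with the minimum length and within 100 kb. It ranged from -1.5 to 0.5 with a library left out. Within 30 kb it was -2 intervals, the same as that of Cdk1-i. At the other ends the fzr difference became -0.5 with the minimum length, 1.5 with a minimum −log10 q of 5, 2.5 with equal lists and 2 within 30 kb. There it ranged from -0.5 to 1 with a library left out. The losses in Cdk1-i were 26 with exchanged labels (17 to 52 with a library left out). The gains in Cdk1-i were 7 with the minimum length and 5 with exchanged labels (12 to 48). The losses in fzr were 13 with equal lists and 17 with exchanged labels (26 to 73), and its gains 10 and 12 (5 to 35). The cause of these moves was not tested, except that fewer libraries must meet the call when one is left out.

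With equal lists the differences from the rest of the arms were 1.95 points and 12.25 bp, and no longer passed. With a library left out they were 4.37 to 5.41 points and 18.2 to 26.5 bp, where 5 libraries cannot give an adjusted p under 0.05. Depth is unknown, and it limits what a missing peak can show.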
